A study of Medicago truncatula with 6 samples.

Results

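Root hairs of the legume Medicago truncatula were compared between plants treated for 20 h with Nod factor (NF), the lipo-chitooligosaccharide signal that rhizobia send to their host, and plants treated with water. The comparison rests on 3 RNA-seq libraries: replicates 1 and 2 of NF 20 h, and the control library that the labels number as replicate 2. It covers the 17150 genes that averaged at least 1 CPM over these 3 libraries, of 50897 transcripts listed. CPM stands for the read pairs counted on a gene after every library is scaled to the same total. All groups were wild type Jemalong A17 seedlings aged 5 days and grown in vitro, and root hairs of 100 plants were pooled for each library. The control is labelled as a 4 h water treatment, so that the presence of NF and the length of the treatment cannot be told apart, and control replicate 1 is not analysed here. The series also holds 2 libraries of NF 4 h, which entered the statistical fit and are otherwise given only beside values of NF 20 h. A gene is called higher or lower where edgeR's quasi-likelihood test over all fitted genes gave an adjusted p under 0.05. The value after ± is a standard error derived from that test, the absolute log2 fold change over the square root of its F statistic. It therefore adds no measure of error beyond the quasi-likelihood test. Beside a count of 0 by that test, brackets give how many of the genes had an unadjusted p under 0.05 and how many DESeq2's Wald test called.

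In legumes, NF is bound by LysM receptor kinases at the surface of root hairs, and the signal passes through calcium oscillations in and around the nucleus. GRAS factors of the NSP type, ERN factors of the AP2/ERF family, NIN and nuclear factor Y subunits then switch on genes that serve the curling of the hair and the growth of infection threads, the tubes through which bacteria enter. Cytokinin, gibberellin, ethylene and strigolactone pathways are known to act around this programme, cytokinin as a signal for nodule formation and ethylene as a brake.

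The libraries held 41967304 and 47302574 counted read pairs in NF 20 h and 45591207 in the control, so that 3 counts corresponded to 0.0634 to 0.0715 CPM. Scaling factors computed by TMM lay between 0.974 and 1.01, and the median log2 fold change over the 17150 genes was 0.01. In NF 20 h the replicates lay within 1.5-fold of each other for 14676 genes (85.6%). Replicate 1 was more than 4-fold below replicate 2 for 69 genes and more than 4-fold above it for 43 genes; 63 of the 69 lay below the control in both libraries, 62 of the 69 were also lower in replicate 1 than in replicate 2 of NF 4 h, and 1 of the 69 was called. The control carries the replicate number 2, and whether the number marks a shared batch is not given in the labels.

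The root hair label was checked against the orthologues of Arabidopsis root hair genes listed by the study. Of 1339 such genes, 1117 averaged at least 1 CPM, and together they took 138931 and 140703 CPM in NF 20 h, against 139371 CPM in the control. The most abundant of them encoded an Ole e I family protein (Medtr1g088110), with 2768 and 4145 CPM in NF 20 h, against 3143 CPM in the control. Markers of other root cells were also present: 10 genes annotated as CASP-like, root cap, SCR or SMB reached 1 CPM and summed to 1011 and 1609 CPM in NF 20 h, against 730.2 CPM in the control. Of these, SCR (Medtr1g069725), a GRAS factor that patterns endodermis and cortex, and the CASP-like genes Medtr7g024750 and Medtr4g068780 were called higher, and none was called lower (1 unadjusted, 0 by DESeq2). All 3 were among 5 markers listed only in the study's table of genes responding to NF. Of these 5, 2 lay below the control in both libraries, and the lowest log2 fold change was -2.40. Of the 5 markers from the study's other tables none was called (1 unadjusted, 1 by DESeq2, higher). In both libraries 2 of them lay above the control and 1 below, and the lowest log2 fold change was -3.06. SCR had 21.6 and 28.3 CPM in NF 20 h, against 7.52 CPM in the control, and Medtr7g024750 had 23.6 and 29.6 CPM in NF 20 h, against 5.99 CPM in the control. The part of such cells in the results below was not tested.

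After 20 h of NF, 239 genes were called higher and 81 lower than in the control by edgeR's quasi-likelihood test (Benjamini-Hochberg adjustment over 22091 genes), so that 74.7% of the calls were higher. The split depended on the test: edgeR's exact test called 542 genes higher and 404 lower (57.3% higher), and DESeq2 544 and 313 (63.5%). The calls of the quasi-likelihood test were 1.39% of the 17150 genes in the upward and 0.472% in the downward direction. Without replicate 1 of NF 4 h 560 genes were called, without replicate 2 of NF 4 h 551, and by DESeq2 857, among them all 320. All 320 called genes had both NF 20 h libraries on the same side of the control. Over all 17150 genes, both libraries lay above the control for 6042 genes (35.2%) and below it for 5460 (31.8%), and both lay at least 2-fold above it for 490 genes (2.86%) and at least 2-fold below it for 374 (2.18%). In replicate 2 alone, without replicate 1 of NF 20 h, 764 genes were at least 2-fold above and 773 at least 2-fold below. The called genes had a median log2 fold change of 3.07 where higher and -1.72 where lower, and 84 genes exceeded 4 on the log2 scale upwards, against 13 downwards. The genes called higher summed to 12944 and 11799 CPM in NF 20 h, against 2218 CPM in the control, and those called lower to 2225 and 2272 CPM in NF 20 h, against 6280.2 CPM in the control. Since the control is 1 library, the error of every fold change comes from the spread between replicates of the NF groups, with 2 residual degrees of freedom. The test also drew each gene's spread towards a trend over all fitted genes, weighted at a median of 3.53 degrees of freedom. No p-value covers the spread between control plants. An exact permutation test of a single gene over the 3 libraries cannot give a p below 1 in 3, so no such test is given. In bulk samples, fewer cells of a type and less RNA per cell cannot be told apart.

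**Figure D1:**
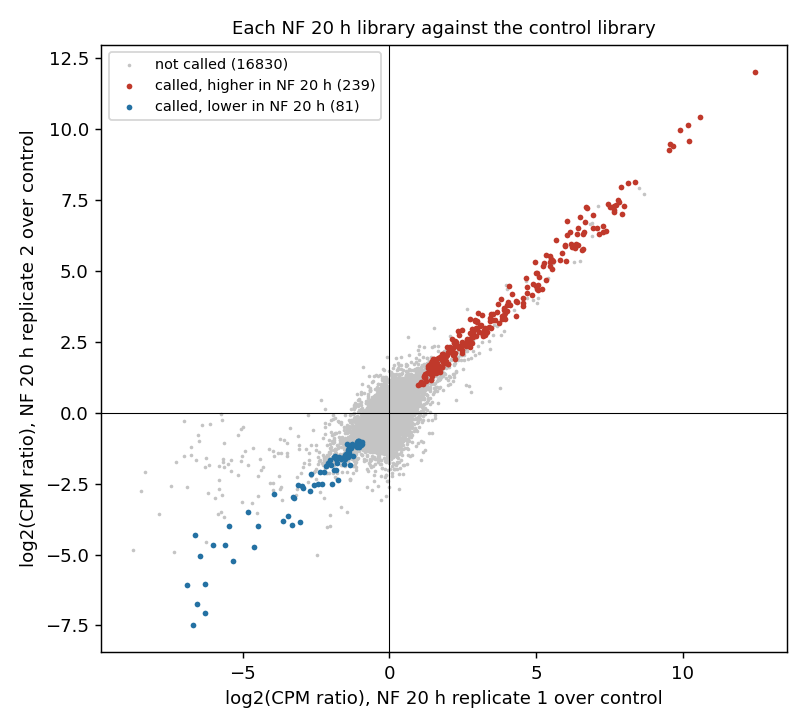
log2 ratio of CPM in NF 20 h replicate 1 (x axis) and replicate 2 (y axis) over the control, for the 17150 genes at a mean of 1 CPM or more; red and blue points are the 239 genes called higher and the 81 called lower, and grey points were not called. The called genes lie in the upper right and lower left quadrants in both libraries, and a group of uncalled genes at the lower left is further below the control in replicate 1 than in replicate 2.

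The nodulation transcription factors that the study named were higher in NF 20 h or not called. All 10 lay above the control in both libraries and 5 were called higher, with a median log2 fold change of 1.32 over the 10. The study named these and the infection genes that follow with its own results in view, so that their direction is not independent evidence. NIN (Medtr5g099060), the regulator without which neither infection threads nor nodules form, had 46.3 and 40.8 CPM in NF 20 h, against 4.34 CPM in the control (log2 fold change 3.33 ± 0.21, adjusted p = 0.0159). NF-YA1 (Medtr1g056530), a subunit of nuclear factor Y that acts downstream of NIN, had 503 and 474 read pairs in NF 20 h, against 0 in the control. Against the floor of 3 counts that a control of 0 allows, each NF 20 h library was at least 152-fold higher (adjusted p = 0.0497).

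The GRAS factors NSP1 and NSP2, which act together on the ERN1 and NIN promoters, were both called higher. NSP1 (Medtr8g020840) had 42.6 and 39.9 CPM in NF 20 h, against 6.78 CPM in the control (log2 fold change 2.61 ± 0.23, adjusted p = 0.0217). NSP2 (Medtr3g072710) had 105 and 85.4 CPM in NF 20 h, against 38.8 CPM in the control (log2 fold change 1.29 ± 0.19, adjusted p = 0.0485). The call of NSP2 was at the edge of the threshold: with a filter of at least 10 counts in every library the adjusted p was 0.0502. ERN1 (Medtr7g085810), the AP2/ERF factor of the infection programme, had 128 and 136 CPM in NF 20 h, against 43.1 CPM in the control (log2 fold change 1.61 ± 0.15, adjusted p = 0.0226).

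The 5 factors that were not called also lay above the control in both libraries. ERN2 (Medtr6g029180) had 52.2 and 76.7 CPM in NF 20 h, against 28.1 CPM in the control (adjusted p = 0.129), and NF-YA2 (Medtr7g106450), a close relative of NF-YA1, had 41.2 and 46.7 CPM in NF 20 h, against 17.6 CPM in the control (adjusted p = 0.0541). The log2 fold changes of ERN3, NF-YB7 and NF-YC2 were 0.59, 1.32 and 0.76. Of these factors, NF-YA2 was called in 8 of 12 alternative fits and ERN3 in 1. Without replicate 1 of NF 20 h the adjusted p was 0.0267 for ERN2 and 0.0498 for NF-YA2, and for NF-YA2 it was 0.0195 and 0.0213 without replicates 1 and 2 of NF 4 h.

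Among the infection and early nodulin genes, 8 of the 11 that reached 1 CPM were called higher and none lower (1 unadjusted, 0 by DESeq2), and their median log2 fold change was 7.35, against 0.01 over all genes. Most of them were almost silent in the control. ENOD11 (Medtr3g415670), a proline-rich cell wall protein widely used as a reporter of NF perception, had 2122 and 2373 read pairs in NF 20 h, against 2 in the control, a ratio of 1148 with an exact 95% counting interval of 318 to 9481. ENOD12 (Medtr3g415650), its neighbour and a protein of the same kind, had 193 and 165 read pairs in NF 20 h, against 1 in the control, a ratio of 183 with an exact 95% counting interval of 32.6 to 7242. For both genes the replicates of NF 20 h were close to each other and far from the control.

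NPL (Medtr3g086320), a pectate lyase that opens the wall for the infection thread in Lotus japonicus, had 2194 and 1600 read pairs in NF 20 h, against 2 in the control, a ratio of 969 with an exact 95% counting interval of 268 to 8003. NIP1 (Medtr8g087710), a membrane channel of the major intrinsic protein family, had 1416 and 1418 read pairs in NF 20 h, against 1 in the control, a ratio of 1447 with an exact 95% counting interval of 259.6 to 57188. The annexin ANN1 (Medtr8g038210), which binds membranes in the presence of calcium, had 95.6 and 50.4 CPM in NF 20 h, against 0.395 CPM in the control (log2 fold change 7.52 ± 0.99, adjusted p = 0.0377). Its replicates differed by nearly as much as a 2-fold step, but both stood far above the control.

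The kinases named SPK1 and SPK2 and the E3 ubiquitin ligase PUB1, a partner of the receptor LYK3 that restrains infection, completed the called genes. SPK2 (Medtr8g074920) had the largest fold change of the 3, with 29.4 and 23.8 CPM in NF 20 h, against 0.132 CPM in the control (log2 fold change 7.63 ± 0.67, adjusted p = 0.0217). SPK1 (Medtr4g129010) had 112 and 86.6 CPM in NF 20 h, against 12.4 CPM in the control (log2 fold change 2.996 ± 0.32, adjusted p = 0.0264). PUB1 (Medtr5g083030) had 131 and 127 CPM in NF 20 h, against 40.6 CPM in the control (log2 fold change 1.66 ± 0.22, adjusted p = 0.0396). The remaining genes of the list were not called. VAPYRIN (Medtr6g027840), an ankyrin protein needed for intracellular infection, had 156 and 109.9 CPM in NF 20 h, against 34.3 CPM in the control (adjusted p = 0.0705, and called in 8 of 12 alternative fits: 0.0248 without replicate 2 of NF 20 h, 0.00898 and 0.0102 without replicates 1 and 2 of NF 4 h). The peroxidase RIP1 (Medtr5g074860) had 16.3 and 8.16 CPM in NF 20 h, against 4.12 CPM in the control (adjusted p = 0.244), and without replicate 2 of NF 20 h this was 0.0271. N8 (Medtr1g074410) was the 1 gene of the list below the control in both libraries, with 22.9 and 21.7 CPM in NF 20 h, against 38.7 CPM in the control (adjusted p = 0.165). It was called lower in 2 of 12 alternative fits, among them edgeR's exact test (adjusted p = 0.037).

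**Figure D2:**
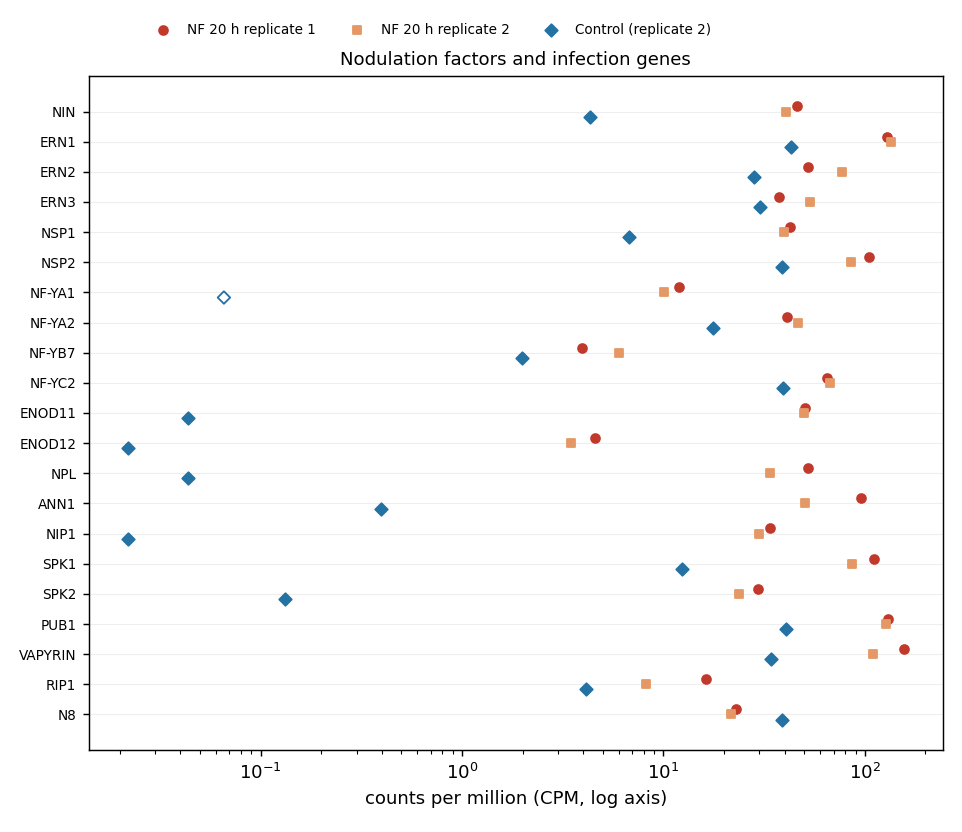
Expression in CPM (log axis) of 10 nodulation transcription factors and 11 infection and early nodulin genes in NF 20 h replicate 1 (circles), NF 20 h replicate 2 (squares) and the control (diamonds); the open diamond stands for a control of 0 counts, drawn at the floor of 3 counts. Both NF 20 h libraries lie above the control for every gene except N8, and the gap is widest for ENOD11, NPL and NIP1, which had 1 or 2 counts in the control.

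Functional classes of the annotated genes were then described. An annotation was found for 4980 of the 17150 genes and for 297 of the 320 called genes, and 3828 of the 4980 came from tables of the study that were not chosen by the response to NF. Genes annotated only in the study's table of responding genes are counted apart in the text, because that table was made from these samples and their share of calls is not independent evidence. Of 1021 genes listed as legume-specific, 15 were called higher (median log2 fold change of the list 0.05) and 11 lower. Of the 1117 root hair orthologues, 12 were called higher and 8 lower. Over all 17150 genes, 1.39% were called higher and 0.472% lower, and neither list was tested against these shares.

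**Figure D3:**
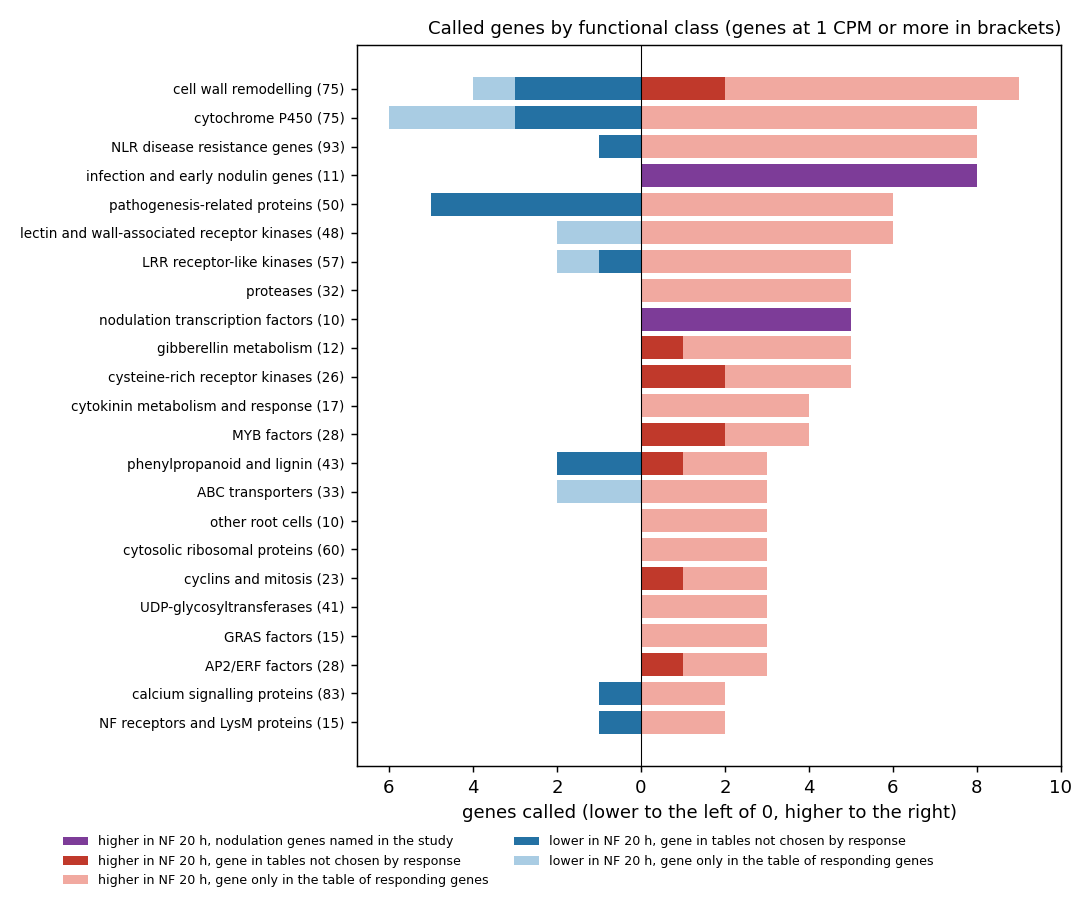
Number of called genes in the functional classes with at least 3 calls; bars to the right of 0 count genes called higher in NF 20 h and bars to the left genes called lower, and the number of genes at 1 CPM or more stands in brackets. Purple marks the nodulation genes named in the study, dark red and dark blue the genes from tables not chosen by response and light colours the genes listed only among the responding genes. Cell wall remodelling has 9 genes higher and 4 lower, and pathogenesis-related proteins 6 higher and 5 lower.

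LysM proteins, the family that holds the NF receptors, were called in both directions. Of 7 genes from tables not chosen by response, none was called higher (1 unadjusted, 0 by DESeq2) and 1 was called lower (median log2 fold change -0.20). Of 8 listed only among the responding genes, 2 were called higher and none lower (3 unadjusted, 1 by DESeq2). LYK10 (Medtr5g033490), whose Lotus counterpart EPR3 perceives bacterial exopolysaccharide, had 37.6 and 27.7 CPM in NF 20 h, against 0.307 CPM in the control (log2 fold change 6.72 ± 0.61, adjusted p = 0.0226). The receptor-like kinase Medtr4g058570 had 148 and 115 read pairs in NF 20 h, against 2 in the control, a ratio of 67.2 with an exact 95% counting interval of 18.4 to 557. LYM2 (Medtr4g094730), a LysM protein anchored to the outer face of the membrane that binds chitin fragments in Arabidopsis, was lower, with 148 and 155 CPM in NF 20 h, against 311 CPM in the control (log2 fold change -1.04 ± 0.15, adjusted p = 0.0490). This call was lost in 6 of 12 alternative fits, with adjusted p-values of 0.0767 without replicate 1 and 0.057 without replicate 2 of NF 20 h, and of 0.0684 and 0.0688 without replicates 1 and 2 of NF 4 h.

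Among other receptor kinases, the higher calls of 2 of 3 classes came only from genes listed among the responding genes. Of 26 leucine-rich repeat kinases from tables not chosen by response none was called higher (2 unadjusted, 0 by DESeq2) and 1 lower, with 17 below the control in both libraries, and of 31 listed only among the responding genes 5 were higher and 1 lower. Of 16 lectin and wall-associated kinases from tables not chosen by response none was called (3 unadjusted, 0 by DESeq2), with 10 below the control in both libraries, and of 32 others 6 were higher and 2 lower. Of 12 cysteine-rich kinases from tables not chosen by response 2 were higher and none lower (6 unadjusted, 0 by DESeq2), and of 14 others 3 were higher and none lower (6 unadjusted, 4 by DESeq2). The leucine-rich repeat kinase Medtr5g025850 had 51.0 and 38.8 CPM in NF 20 h, against 0.680 CPM in the control (log2 fold change 6.04 ± 0.52, adjusted p = 0.0217). The lectin kinase Medtr8g068050 had 5.67 and 6.93 CPM in NF 20 h, against 0.746 CPM in the control. The wall-associated kinase Medtr2g031530 was called lower, with 21.2 and 21.8 CPM in NF 20 h, against 61.1 CPM in the control (log2 fold change -1.51 ± 0.16, adjusted p = 0.0261).

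Intracellular immune receptors of the NLR type had 43 genes listed only among the responding genes, of which 8 were called higher and none lower (9 unadjusted, 1 by DESeq2). Of 50 genes from the other tables none was called higher (4 unadjusted, 1 by DESeq2) and 1 lower, and the median log2 fold change was -0.05. Medtr4g080060, of the TIR class, had 10.1 and 9.89 CPM in NF 20 h, against 0.877 CPM in the control (log2 fold change 3.50 ± 0.27, adjusted p = 0.0187). Medtr8g469140, of the same class, was the gene called lower, with 17.1 and 17.7 CPM in NF 20 h, against 36.3 CPM in the control (adjusted p = 0.0394). Without replicate 1 of NF 20 h the adjusted p of Medtr8g469140 was 0.065 and without replicate 2 it was 0.0504.

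Genes of cell wall remodelling were called in both directions, and both enzymes and inhibitors were found among the genes that rose and among those that fell. The glucan endo-1,3-beta-glucosidase Medtr2g034480, given below with the defence proteins, was counted here too and fell (log2 fold change -1.72). Of 44 genes from tables not chosen by response, 2 were called higher and 3 lower (median log2 fold change 0.14), and of 31 listed only among the responding genes, 7 were higher and 1 lower. The expansin-like gene Medtr0118s0070, of a protein family that loosens walls, had 10535 and 8522 read pairs in NF 20 h, against 2 in the control, a ratio of 4866 with an exact 95% counting interval of 1347 to 40186. The pectinesterase Medtr4g087980, an enzyme that removes methyl groups from pectin, had 147 and 98.9 CPM in NF 20 h, against 1.07 CPM in the control (log2 fold change 6.83 ± 0.70, adjusted p = 0.0261). The extensin-like gene Medtr4g029620, for a structural glycoprotein of the wall, had 269.6 and 165 CPM in NF 20 h, against 11.4 CPM in the control (log2 fold change 4.25 ± 0.58, adjusted p = 0.0396).

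All 3 genes were low in the control and high in both NF 20 h libraries, with replicate 1 above replicate 2. The pectin methylesterase inhibitor Medtr3g008760 was already abundant in the control, with 494 and 517 CPM in NF 20 h, against 130.3 CPM in the control (log2 fold change 1.96 ± 0.18, adjusted p = 0.0226). Of the genes that fell, the polygalacturonase inhibitor Medtr7g023740 had 12.4 and 10.7 CPM in NF 20 h, against 61.5 CPM in the control (log2 fold change -2.41 ± 0.23, adjusted p = 0.0226). The xyloglucanase inhibitor Medtr1g072450 had 143 and 139 CPM in NF 20 h, against 383 CPM in the control (log2 fold change -1.44 ± 0.18, adjusted p = 0.0341). The gene Medtr1g093100, of this annotation too, had 49.8 and 54.4 CPM in NF 20 h, against 129 CPM in the control (log2 fold change -1.31 ± 0.15, adjusted p = 0.0297).

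The gibberellin genes called higher included enzymes that make the hormone and enzymes that inactivate it. Of the 12 measured genes, 5 were called higher and none lower (1 unadjusted, 1 by DESeq2): 1 of 5 from tables not chosen by response and 4 of 7 listed only among the responding genes. Ent-kaurene synthase (Medtr3g058160), which forms the hormone's hydrocarbon skeleton, had 84 and 123 read pairs in NF 20 h, against 1 in the control, a ratio of 106 with an exact 95% counting interval of 18.8 to 4196. Ent-kaurenoic acid oxidase, a later oxidation on the way to active gibberellin, is encoded by a pair of genes. Medtr2g105360 had 89.7 and 67.8 CPM in NF 20 h, against 13.5 CPM in the control (log2 fold change 2.55 ± 0.33, adjusted p = 0.0374). Medtr2g031930 had 11.8 and 6.24 CPM in NF 20 h, against 0.592 CPM in the control (log2 fold change 3.92 ± 0.53, adjusted p = 0.0401). Both genes of the oxidase were higher in each NF 20 h library than in the control.

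The inactivating 2-oxidases Medtr1g086550 and Medtr4g074130 were called higher as well. Medtr1g086550 had 45.1 and 40.5 CPM in NF 20 h, against 8.27 CPM in the control (log2 fold change 2.37 ± 0.18, adjusted p = 0.0187). Medtr4g074130 had 17.6 and 21.6 CPM in NF 20 h, against 1.97 CPM in the control (log2 fold change 3.31 ± 0.26, adjusted p = 0.0206). Copalyl diphosphate synthase (Medtr7g011663), the enzyme before ent-kaurene synthase, missed the threshold with an adjusted p of 0.0516, at 382 and 216 read pairs in NF 20 h, against 1 in the control; it was called in each of the 11 alternative fits that kept it, at an adjusted p of 0.046 and 0.0218 without replicates 1 and 2 of NF 20 h and of 0.00128 and 0.00146 without those of NF 4 h. The 20-oxidases, which make the precursors of active gibberellin, lay on both sides of the control and were not called by the quasi-likelihood test. Medtr3g096500 had 33.8 and 18.8 CPM in NF 20 h, against 4.96 CPM in the control (adjusted p = 0.114, and 0.0271 without replicate 2 of NF 20 h, 0.0106 and 0.011 without replicates 1 and 2 of NF 4 h). Medtr8g093930 had 2.79 and 3.97 CPM in NF 20 h, against 8.03 CPM in the control (adjusted p = 0.129), and it was called lower in 3 of 12 alternative fits, among them DESeq2 (adjusted p = 0.0455) and edgeR's exact test (0.0191).

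Cytokinin genes called higher covered synthesis and response. Of 11 genes listed only among the responding genes 4 were called higher, and all 11 lay above the control in both libraries, while of 6 genes from the other tables none was called (1 unadjusted, 0 by DESeq2) and the median log2 fold change was -0.22. Isopentenyltransferases catalyse the entry step of cytokinin synthesis. IPT5 (Medtr2g022140) had 8.98 and 7.53 CPM in NF 20 h, against 0.351 CPM in the control (log2 fold change 4.54 ± 0.49, adjusted p = 0.0269). The gene labelled IPT (Medtr4g117330) had 5.81 and 4.86 CPM in NF 20 h, against 0.746 CPM in the control (log2 fold change 2.83 ± 0.36, adjusted p = 0.0366). Without replicate 1 of NF 20 h, the adjusted p of Medtr4g117330 was 0.0549. The type-A response regulator ARR5 (Medtr3g078613), a gene that cytokinin induces and that dampens the response, had 50.9 and 61.7 CPM in NF 20 h, against 20.4 CPM in the control (log2 fold change 1.46 ± 0.18, adjusted p = 0.0338).

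The type-A regulator RR11 (Medtr8g038620) had 11.3 and 23.6 CPM in NF 20 h, against 5.55 CPM in the control and was not called (adjusted p = 0.349). It was called in 3 of 12 alternative fits, among them DESeq2 (adjusted p = 0.0279) and edgeR's exact test (0.0225). The cytokinin receptor CRE1 (Medtr8g106150) had 98.4 and 69.7 CPM in NF 20 h, against 59.6 CPM in the control (adjusted p = 0.613). Medtr6g017325, which the study labels CKX but annotates as a cytochrome P450 of family 709, had 8.72 and 10.1 CPM in NF 20 h, against 0.132 CPM in the control (log2 fold change 6.13 ± 0.46, adjusted p = 0.0187).

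Of the ethylene synthesis genes, the ACC synthase Medtr6g091760, the rate-limiting step, had 27.05 and 22.3 CPM in NF 20 h, against 4.80 CPM in the control (log2 fold change 2.36 ± 0.31, adjusted p = 0.0389). ACS1 (Medtr8g098930) had 51.7 and 51.6 CPM in NF 20 h, against 78.4 CPM in the control and was not called (adjusted p = 0.131), but was called lower in 1 of 12 alternative fits. The ACC oxidase-like gene Medtr1g044105 had 4.12 and 4.04 CPM in NF 20 h, against 0.483 CPM in the control, with an adjusted p of 0.0425 and of 0.0567 without replicate 1 of NF 20 h. None of 6 genes from tables not chosen by response was called (1 unadjusted, 0 by DESeq2), and their median log2 fold change was 0.03. For auxin, 2 of 15 genes listed only among the responding genes were called higher, both SAUR-like, and none lower (2 unadjusted, 2 by DESeq2). Medtr8g094980, 1 of the 2, had 5.29 and 7.76 CPM in NF 20 h, against 0.790 CPM in the control (log2 fold change 3.04 ± 0.37, adjusted p = 0.0334). None of 21 auxin genes from tables not chosen by response was called (2 unadjusted, 1 by DESeq2). Of 14 abscisic acid response genes from those tables none was called (10 unadjusted, 4 by DESeq2). In both libraries 12 of the 14 lay below the control, against 31.8% of all genes, and their median log2 fold change was -0.63. Of 3 listed only among the responding genes 1 was called higher.

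2 genes annotated to strigolactone synthesis, chosen after their values were seen, were called higher. Strigolactones are carotenoid-derived hormones that also attract mycorrhizal fungi, and in Medicago and rice NSP1 and NSP2 are needed for their synthesis. The beta-carotene isomerase D27 (Medtr1g471050) had 81.7 and 80.1 CPM in NF 20 h, against 9.48 CPM in the control (log2 fold change 3.09 ± 0.23, adjusted p = 0.0187). The carotenoid cleavage dioxygenase RMS1 (Medtr3g109610), which carries the name of the pea enzyme, had 13.0 and 12.0 CPM in NF 20 h, against 0.154 CPM in the control (log2 fold change 6.32 ± 0.61, adjusted p = 0.0228). In both genes the replicates of NF 20 h lay within 1.5-fold of each other. RMS1 was the 1 gene called of 3 carotenoid cleavage genes, all listed only among the responding genes, and none was called lower (1 unadjusted, 1 by DESeq2). Of the other 2, Medtr8g037290 had 3.43 and 2.58 CPM in NF 20 h, against 12.5 CPM in the control (adjusted p = 0.157). It was called lower in 7 of 12 alternative fits, with adjusted p-values of 0.0033 by DESeq2 and of 0.00762 and 0.00885 without replicates 1 and 2 of NF 4 h.

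**Figure D4:**
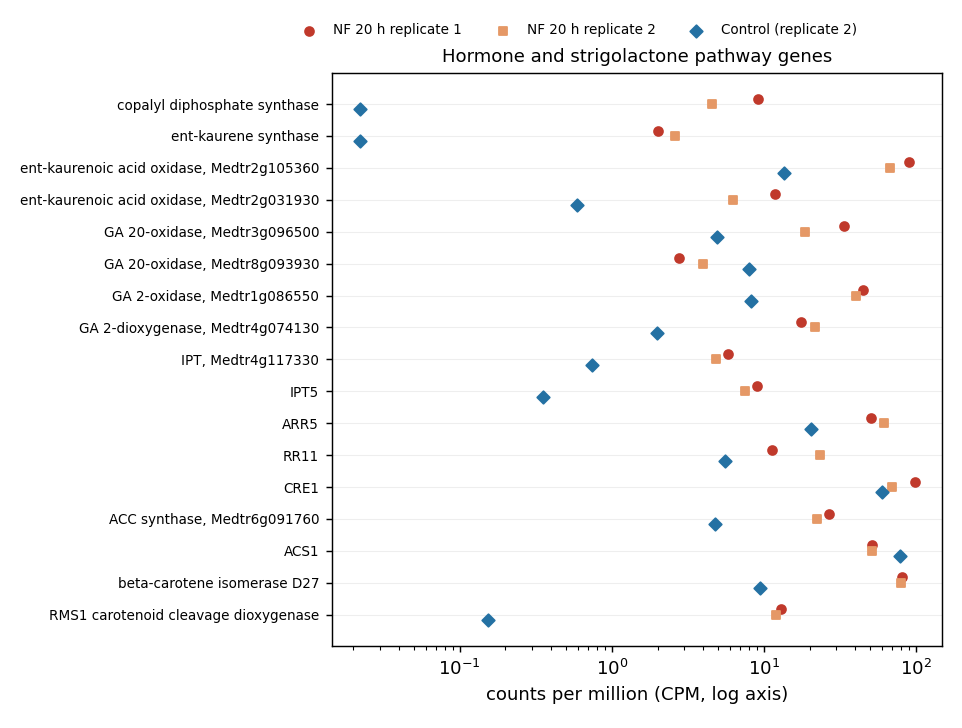
Expression in CPM (log axis) of gibberellin, cytokinin, ethylene and strigolactone pathway genes in NF 20 h replicate 1 (circles), NF 20 h replicate 2 (squares) and the control (diamonds). The synthesis genes of gibberellin and strigolactone lie above the control in both libraries except for the 20-oxidase Medtr8g093930, and CRE1 and ACS1 lie closest to it.

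Further transcription factors were called. LOB domain factors shape organ boundaries and lateral roots, and 2 of 5, all listed only among the responding genes, were higher. LBD16 (Medtr7g096530), a gene of lateral root initiation, had 11.03 and 10.3 CPM in NF 20 h, against 0.241 CPM in the control (log2 fold change 5.45 ± 0.51, adjusted p = 0.0226). LBD4 (Medtr4g083680) had 41.4 and 33.0 CPM in NF 20 h, against 1.40 CPM in the control (log2 fold change 4.73 ± 0.62, adjusted p = 0.0377). Among MYB factors 2 of 17 from tables not chosen by response were higher and none lower (0 unadjusted, 0 by DESeq2), and 2 of 11 listed only among the responding genes were higher and none lower (1 unadjusted, 0 by DESeq2). Medtr8g101650, a MYB-like gene listed as legume-specific, had 70.2 and 72.6 CPM in NF 20 h, against 9.06 CPM in the control (log2 fold change 2.98 ± 0.16, adjusted p = 0.0159). None of 36 WRKY factors, a family known for defence, was called, by an unadjusted p 5 of 32 and 4 of 4 passed and by DESeq2 1 of each, and the 32 from tables not chosen by response had a median log2 fold change of -0.02.

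Cell division genes were read by annotation table. Of 12 DNA replication genes at 1 CPM or more, all of them listed only among the responding genes, all 12 lay above the control in both libraries, with log2 fold changes of 0.92 to 2.00 and a median of 1.51, and none passed the test (11 unadjusted, 4 by DESeq2). The replication licensing factor MCM2 (Medtr4g122270) had 412 and 255 read pairs in NF 20 h, against 111 in the control (adjusted p = 0.254). Of 13 genes of cyclins and mitosis from tables not chosen by response 1 was called higher and none lower (3 unadjusted, 1 by DESeq2). In both libraries 6 of the 13 lay above and 6 below the control, and the median log2 fold change was -0.05. Of 10 listed only among the responding genes 2 were called higher and none lower (1 unadjusted, 1 by DESeq2), and 9 lay above the control. The 1 gene called of the 13 was Medtr7g078150, annotated as a RING-H2 subunit of the anaphase-promoting complex, the ubiquitin ligase that ends mitosis. It is also listed as legume-specific, and a role in that complex was not tested. It had 31.1 and 32.7 CPM in NF 20 h, against 4.65 CPM in the control (log2 fold change 2.78 ± 0.19, adjusted p = 0.0187). The cyclin-dependent kinase Medtr1g098300 had 35.8 and 38.8 CPM in NF 20 h, against 13.2 CPM in the control (log2 fold change 1.496 ± 0.20, adjusted p = 0.0405).

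The beta-tubulin gene Medtr8g107250 (TUBB1), a building block of microtubules, had 207 and 217 CPM in NF 20 h, against 54.7 CPM in the control (log2 fold change 1.96 ± 0.22, adjusted p = 0.0297). None of 25 histone and tubulin genes from tables not chosen by response was called (0 unadjusted, 0 by DESeq2), and 11 of the 25 lay above the control in both libraries. Most cytosolic ribosomal protein genes lay slightly above the control. Of 34 genes from tables not chosen by response, 31 lay above the control in both libraries and none was called (6 unadjusted, 1 by DESeq2), with a median log2 fold change of 0.32, against 35.2% above and a median of 0.01 over all genes. Of 26 listed only among the responding genes, 3 were called higher and none lower (0 unadjusted, 0 by DESeq2), and 25 lay above the control in both libraries. The L27a genes Medtr5g033090 and Medtr3g077050, which belong to these 3, had log2 fold changes of 1.39 and 1.21.

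Genes annotated to defence proteins were called in both directions. Of 37 pathogenesis-related proteins from tables not chosen by response, 5 were called lower and none higher (7 unadjusted, 6 by DESeq2), with a median log2 fold change of -0.45. Of 13 listed only among the responding genes 6 were called higher and none lower (4 unadjusted, 4 by DESeq2). The chitinase Medtr1g099310, an enzyme that cuts fungal cell walls, had 87.0 and 105 CPM in NF 20 h, against 447 CPM in the control (log2 fold change -2.22 ± 0.22, adjusted p = 0.0228). The class IV chitinase Medtr2g099470 had 13.0 and 13.4 CPM in NF 20 h, against 77.8 CPM in the control (log2 fold change -2.56 ± 0.25, adjusted p = 0.0228). The glucan endo-1,3-beta-glucosidase Medtr2g034480, which cuts callose and fungal glucan, had 108 and 124 CPM in NF 20 h, against 383 CPM in the control (log2 fold change -1.72 ± 0.19, adjusted p = 0.0297).

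In these 3 genes the replicates of NF 20 h lay within 1.5-fold of each other and below the control. Medtr6g033450, of the Bet v I family, had 1.43 and 1.40 CPM in NF 20 h, against 9.34 CPM in the control (log2 fold change -2.72 ± 0.24, adjusted p = 0.0217). The family 18 glycoside hydrolases, a group that holds chitinases and, in Medicago, an enzyme that cleaves NF, were called in both directions. Medtr3g110320 was lower, with 17.9 and 15.0 CPM in NF 20 h, against 52.2 CPM in the control (log2 fold change -1.67 ± 0.19, adjusted p = 0.0304). The neighbours Medtr4g116990 and Medtr4g117000 were higher. Medtr4g117000 had 24.6 and 25.7 CPM in NF 20 h, against 0.285 CPM in the control (log2 fold change 6.45 ± 0.53, adjusted p = 0.0217). Medtr4g116990 had 21.5 and 17.7 CPM in NF 20 h, against 2.24 CPM in the control (log2 fold change 3.13 ± 0.28, adjusted p = 0.0217).

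The defensin-related gene Medtr8g012795, for a small antimicrobial peptide, had the third largest gain in CPM, with 676 and 564 CPM in NF 20 h, against 6.87 CPM in the control (log2 fold change 6.50 ± 0.46, adjusted p = 0.0187). Its neighbour Medtr8g012800 had 200 and 191 read pairs in NF 20 h, against 3 in the control, a ratio of 66.6 with an exact 95% counting interval of 22.6 to 324. The proteinase inhibitor Medtr5g045470 had 31.6 and 32.7 CPM in NF 20 h, against 0.132 CPM in the control (log2 fold change 7.90 ± 0.40, adjusted p = 0.0159). None of 23 proteinase inhibitors from tables not chosen by response was called (4 unadjusted, 2 by DESeq2). Read pairs that fit more than 1 transcript were left out by the study, so values of near-identical neighbours may be too low.

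Secondary metabolism changed in both directions as well. Of 33 cytochrome P450 genes from tables not chosen by response none was called higher (5 unadjusted, 1 by DESeq2) and 3 were called lower, and of 42 listed only among the responding genes 8 were called higher and 3 lower. The genes that fell included 4 of family 71, in the neighbouring pairs Medtr4g104540 with Medtr4g104550 and Medtr8g104080 with Medtr8g104100. Medtr4g104550 had 15.3 and 16.8 CPM in NF 20 h, against 71.1 CPM in the control (log2 fold change -2.15 ± 0.22, adjusted p = 0.0261), and the other 3 had log2 fold changes of -1.56, -2.03 and -1.67. Medtr8g104100 lost its call without replicate 1 of NF 20 h (adjusted p = 0.0654), and these 3 also lost theirs, at adjusted p-values of 0.0502 to 0.0509, with a filter of at least 10 counts in every library. The P450 gene Medtr7g103450 rose, with 21.9 and 18.6 CPM in NF 20 h, against 0.373 CPM in the control (log2 fold change 5.75 ± 0.31, adjusted p = 0.0159).

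Methyltransferases of the phenylpropanoid pathway, which leads to lignin and wall-bound phenolics, were called in both directions. The caffeic acid O-methyltransferase Medtr1g096310 had 1112 and 1019 CPM in NF 20 h, against 86.6 CPM in the control (log2 fold change 3.62 ± 0.45, adjusted p = 0.0338). Medtr3g021440, of the same annotation, had 17.6 and 17.6 CPM in NF 20 h, against 0.965 CPM in the control (log2 fold change 4.19 ± 0.39, adjusted p = 0.0226). The caffeoyl-CoA O-methyltransferase Medtr6g091680 had 45.4 and 40.3 CPM in NF 20 h, against 162 CPM in the control (log2 fold change -1.92 ± 0.19, adjusted p = 0.0228). The sesquiterpene synthase Medtr2g089120 was lower, with 139 and 145 CPM in NF 20 h, against 358 CPM in the control (log2 fold change -1.33 ± 0.18, adjusted p = 0.0396). Its adjusted p was 0.0619 without replicate 1 of NF 20 h. The lipoxygenase Medtr8g018590, of a family that oxidises fatty acids, had 0.882 and 2.24 CPM in NF 20 h, against 56.7 CPM in the control (log2 fold change -5.17 ± 0.47, adjusted p = 0.0226).

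**Figure D5:**
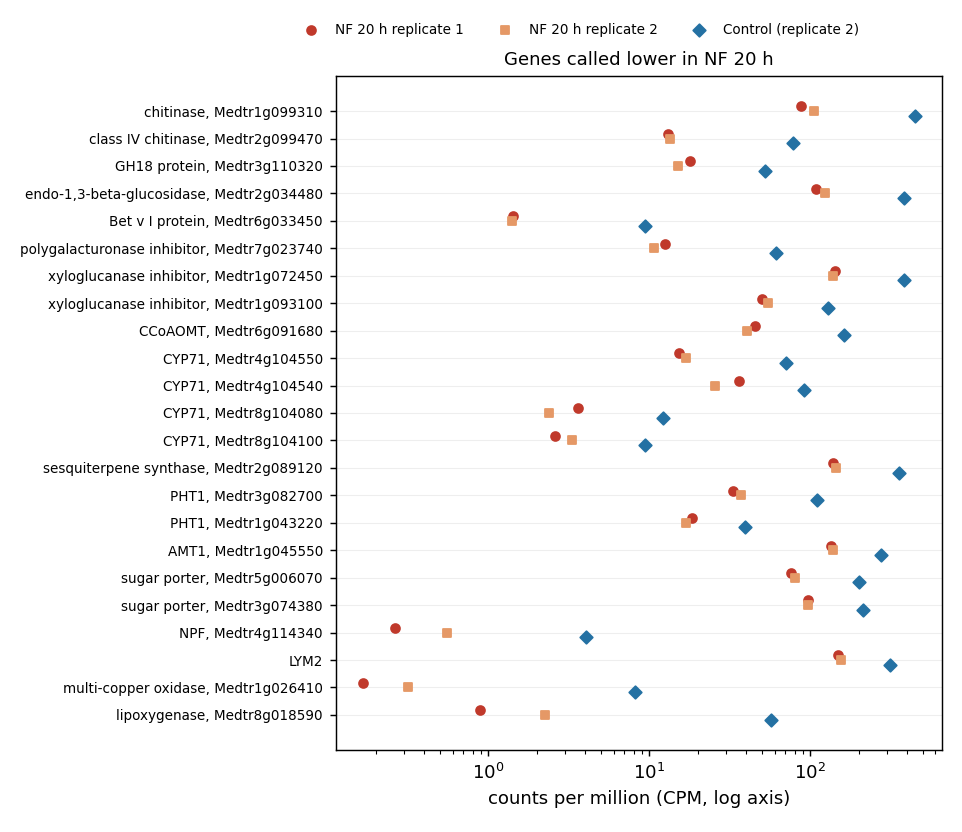
Expression in CPM (log axis) of 23 genes called lower in NF 20 h, in NF 20 h replicate 1 (circles), NF 20 h replicate 2 (squares) and the control (diamonds). Both NF 20 h libraries lie below the control for each gene, from the chitinase Medtr1g099310 with 87.0 and 105 CPM against 447.5 CPM in the control to the multi-copper oxidase Medtr1g026410, which lay under 1 CPM in both NF 20 h libraries.

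The phosphate (PHT1), ammonium, nitrate and proton pump families were read over the members that the study listed. Sugar and amino acid transporters were read as annotation classes. Sulfate, potassium and sodium transporters and the PHO1 phosphate genes are not described by family here. Of 6 high-affinity phosphate transporters of the PHT1 family at 1 CPM or more, 2 were called lower and none higher (1 unadjusted, 0 by DESeq2). Medtr3g082700 had 33.1 and 37.4 CPM in NF 20 h, against 109.9 CPM in the control (log2 fold change -1.64 ± 0.19, adjusted p = 0.0315). Medtr1g043220 had 18.3 and 17.0 CPM in NF 20 h, against 39.5 CPM in the control (log2 fold change -1.16 ± 0.14, adjusted p = 0.0334). Of 5 ammonium transporters 1 was lower and 1 higher. Medtr1g045550, by far the more abundant in the control, had 134 and 138 CPM in NF 20 h, against 277 CPM in the control (log2 fold change -1.03 ± 0.15, adjusted p = 0.0481). This call was lost in 6 of 12 alternative fits, with adjusted p-values of 0.0755 without replicate 1 and 0.0582 without replicate 2 of NF 20 h, and of 0.0673 and 0.0681 without replicates 1 and 2 of NF 4 h. Medtr1g079760 was higher, with 13.9 and 12.3 CPM in NF 20 h, against 2.06 CPM in the control (log2 fold change 2.67 ± 0.26, adjusted p = 0.0228).

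None of 3 NRT2 nitrate transporters at 1 CPM or more was called (3 unadjusted, 2 by DESeq2, both higher), and their median log2 fold change was 0.94. Of 3 genes listed as NRT3, the partner proteins of NRT2, 1 was called higher: Medtr4g104700, with 18.3 and 23.0 CPM in NF 20 h, against 7.24 CPM in the control (log2 fold change 1.51 ± 0.21, adjusted p = 0.0421). In the NPF family 1 of 26 genes was called lower and none higher (4 unadjusted, 1 by DESeq2). That gene, Medtr4g114340, had 0.262 and 0.550 CPM in NF 20 h, against 4.01 CPM in the control, and without replicate 1 of NF 20 h its adjusted p was 0.0564. Of 10 sugar transporters from tables not chosen by response 2 were called lower and none higher (0 unadjusted, 0 by DESeq2), and of 7 listed only among the responding genes none was called (4 unadjusted, 1 by DESeq2). The sugar porters Medtr5g006070 and Medtr3g074380, which carry sugars across membranes with protons, fell by 1.37 and 1.13 on the log2 scale. Of 20 amino acid transporters from tables not chosen by response 1, Medtr5g023260, fell by 1.40 on the log2 scale and none was called higher (0 unadjusted, 0 by DESeq2). Of 9 listed only among the responding genes 1 was called higher, 5 were at least 2-fold above the control in both libraries and 1 at least 2-fold below it, and the median log2 fold change was 2.40 (DESeq2 called 5 higher and 2 lower). Of 8 proton pumps of the AHA family at 1 CPM or more 1 was called higher and none lower (1 unadjusted, 1 by DESeq2). In both libraries 1 of the 8 lay at least 2-fold below the control, and the lowest log2 fold change was -1.52. The pump called higher, HA1 (Medtr8g006790), known from root cells that hold arbuscules, had 23.2 and 14.4 CPM in NF 20 h, against 0.702 CPM in the control (log2 fold change 4.74 ± 0.66, adjusted p = 0.0425).

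A zinc transporter, a kinase and a potassium transporter that lie next to each other in the gene numbering rose together. The potassium transporter Medtr6g007697 had 108 and 101 CPM in NF 20 h, against 35.4 CPM in the control (log2 fold change 1.56 ± 0.18, adjusted p = 0.0297). Its neighbours were nearly silent in the control: the ZIP gene Medtr6g007687 had 260 and 283 read pairs in NF 20 h, against 1 in the control, and the kinase Medtr6g007690 had 753 and 704 read pairs in NF 20 h, against 1 in the control. The lipid transfer protein Medtr5g011960, of a family that binds lipids in the wall space, had 1356 and 1286 read pairs in NF 20 h, against 2 in the control, a ratio of 675 with an exact 95% counting interval of 187 to 5574. Medtr4g101260, of the same annotation, was lower, with 1.72 and 1.65 CPM in NF 20 h, against 9.37 CPM in the control (adjusted p = 0.0329, and 0.0509 without replicate 1 of NF 20 h).

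Class III peroxidases, which make or use hydrogen peroxide in the wall, were called higher in 3 of 50 genes and lower in none (7 unadjusted, 5 by DESeq2), with a median log2 fold change of 0.22. Medtr7g107520 had 70.3 and 63.7 CPM in NF 20 h, against 10.2 CPM in the control (log2 fold change 2.72 ± 0.17, adjusted p = 0.0165). Medtr1g054205 had 18.1 and 25.2 CPM in NF 20 h, against 2.22 CPM in the control (log2 fold change 3.29 ± 0.30, adjusted p = 0.0226). Medtr6g008075 had 12.8 and 18.5 CPM in NF 20 h, against 2.52 CPM in the control. None of 9 NADPH oxidases, the enzymes that start the oxidative burst, was called (2 unadjusted, 1 by DESeq2), and their median log2 fold change was -0.09. None of 69 calcium signalling genes from tables not chosen by response was called higher (5 unadjusted, 3 by DESeq2), and the calmodulin-binding gene Medtr4g086620 was lower, with 50.6 and 47.6 CPM in NF 20 h, against 135 CPM in the control (log2 fold change -1.46 ± 0.17, adjusted p = 0.0297). Of 14 listed only among the responding genes, 2 were called higher and none lower (2 unadjusted, 0 by DESeq2), and 12 lay above the control in both libraries.

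Ranked by CPM gained, the first genes were Medtr1g096310, the hypothetical gene Medtr1g099150 and the defensin-related Medtr8g012795. Per length, the defensin-related gene was the highest of the 3 in NF 20 h: it had 1071 and 895 FPKM in NF 20 h, against 10.9 FPKM in the control, while Medtr1g096310 had 751 and 688 FPKM in NF 20 h, against 58.5 FPKM in the control. Medtr1g099150 had 689 and 604 FPKM in NF 20 h, against 109.5 FPKM in the control. The largest losses in CPM were those of the chitinase Medtr1g099310, the glucosidase Medtr2g034480 and the xyloglucanase inhibitor Medtr1g072450. The legume-specific hypothetical gene Medtr4g088385 had 495 and 262 CPM in NF 20 h, against 3.16 CPM in the control (log2 fold change 6.90 ± 0.89, adjusted p = 0.0367).

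Of the 81 genes called lower, 16 had no annotation in the sources used here, and 12 had under 10 counts in an NF 20 h library. The unannotated gene Medtr4g115360 had 0 and 2 read pairs in NF 20 h, against 342 in the control, and Medtr3g100500 had 0 and 2 read pairs in NF 20 h, against 257 in the control. Both genes were also near 0 in NF 4 h, with 1 and 1 read pairs for Medtr4g115360 and 4 and 3 for Medtr3g100500, so that the control library was the 1 library of 5 with more than 4 read pairs of either. Whether control replicate 1 held them is not analysed here.

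The values at 4 h stand beside those at 20 h against the same control library, so that both comparisons share its error. ENOD11 (Medtr3g415670) had 50.6 and 50.2 CPM at 20 h, 8.05 and 2.88 CPM at 4 h and 0.0439 CPM in the control. ANN1 (Medtr8g038210) had 95.6 and 50.4 CPM at 20 h, 12.7 and 4.85 CPM at 4 h and 0.395 CPM in the control. NIN (Medtr5g099060) had 46.3 and 40.8 CPM at 20 h, 27.9 and 24.8 CPM at 4 h and 4.34 CPM in the control. NSP1 (Medtr8g020840) had 42.6 and 39.9 CPM at 20 h, 62.8 and 48.7 CPM at 4 h and 6.78 CPM in the control. NF-YB7 (Medtr8g091720) had 3.96 and 6.004 CPM at 20 h, 13.5 and 13.4 CPM at 4 h and 2.00 CPM in the control. Of the 21 nodulation and infection genes, 8 had both libraries at 20 h above both at 4 h, as ENOD11, ANN1 and NIN did, 5 had both below, as NSP1 and NF-YB7 did, and 8 overlapped. The lowest adjusted p of the difference between the times over these 21 genes was 0.0891. The proton pump HA1 (Medtr8g006790) had 23.2 and 14.4 CPM at 20 h, 65.0 and 33.0 CPM at 4 h and 0.702 CPM in the control, and its difference between the times did not pass the test either (adjusted p = 0.259).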

How the data were processed

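The authors counted read pairs whose mates both fell without ambiguity on 1 transcript, after mapping with Bowtie2 2.0 (per the labels) to the Mt4.0v1 transcripts; the deposited values are these raw counts per transcript, and counting by strand is not given in the sources used here. CPM was computed on the sum of counted pairs of each library and FPKM from CPM and the listed length. The main test was edgeR 4.0.16 (R 4.3.3), quasi-likelihood, on the 5 libraries with their totals as size, without a replicate block and after filterByExpr, which kept 22091 transcripts; calls were read among genes at a mean of 1 CPM or more. The fit gave a common biological coefficient of variation of 0.193. On simulated counts for this comparison with 4-fold changes, 144 of 200 changed genes among 21640 were recovered, with 6 false calls. The simulation gave each gene the spread of the fitted trend, the same in control and NF libraries, and drew the libraries independently. It left out gene-specific spread and differences shared between replicates, so these counts do not give the error rate in the real data. Alternatives were DESeq2 1.42.0, edgeR's exact test, other scalings and filters, fewer libraries and a replicate block. Nothing says that replicates were separate cultures beyond the authors' term of biological replicate, and p-values measure the spread between these libraries only. Intervals cover counting error only.

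The named genes were the 21 nodulation and infection genes, up to 3 called genes per class and direction with at least 10 counts in each of the 3 libraries, the 6 largest gains and losses in CPM and the 6 lowest p-values per direction (139 genes); not all are printed. Genes with fewer counts or outside these ranks were chosen after their values were seen: Medtr0118s0070, Medtr1g086550, Medtr1g093100, Medtr1g471050, Medtr3g058160, Medtr3g096500, Medtr3g109610, Medtr3g110320, Medtr4g058570, Medtr4g068780, Medtr4g104540, Medtr4g122270, Medtr5g011960, Medtr6g007687, Medtr6g007690, Medtr6g017325, Medtr7g011663, Medtr8g012800, Medtr8g018590, Medtr8g037290, Medtr8g038620, Medtr8g093930, Medtr8g098930 and Medtr8g106150, and Medtr1g088110 as the most abundant marker. Members, classes and lists were chosen with earlier results of these data known. Classes were made by searching annotation text of the study's tables, and no sequence or coordinate is given because the reference used here shares no identifier with the counts. Versions of Python 3.11.15, pandas 2.3.3 and SciPy 1.17.1 were used for the tables.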

Additional observations from a re-analysis of the deposited data

Results flagged for a closer look

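For 3 of the 139 named genes NF 20 h differed from NF 4 h by the test of that difference itself (edgeR's quasi-likelihood test, adjusted over all genes fitted). Most named genes were chosen for their values at 20 h, which this test uses again, so the 3 are not independent evidence. The share of all fitted genes that passed this test is not given here. The P450 gene Medtr7g103450 was higher at 20 h by 2.43 on the log2 scale (adjusted p = 0.0471), with 21.9 and 18.6 CPM at 20 h, 3.97 and 3.52 CPM at 4 h and 0.373 CPM in the control. The peroxidase Medtr7g107520 was higher at 20 h by 1.78 (adjusted p = 0.0471), with 70.3 and 63.7 CPM at 20 h, 19.2 and 19.8 CPM at 4 h and 10.2 CPM in the control. The phosphate transporter Medtr1g043220 had a log2 difference of -1.71 between 20 h and 4 h (adjusted p = 0.0471), with 18.3 and 17.0 CPM at 20 h, 55.7 and 59.4 CPM at 4 h and 39.5 CPM in the control, so that it lay below the control at 20 h and above it at 4 h in both libraries. At 4 h its difference from the control did not pass the quasi-likelihood test (adjusted p = 0.305).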

How the results depend on the processing

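The count of called genes depended on the fit. No called gene changed sign in the 12 alternatives, but this was not a separate check of direction. For each called gene, the replicates of NF 20 h either both exceeded the control library or both fell short of it. Every alternative used that same control library, so the unchanged signs cannot show whether it was itself in error. Against 320 calls, 857 genes were called by DESeq2's Wald test, 946 by edgeR's exact test, 631 with no filter on low counts, 545 with only the 3 libraries compared, 378 with DESeq2 size factors, 352 with TMM factors and 220 with at least 10 counts in every library. DESeq2, the exact test and no filter each called all 239 higher and all 81 lower genes, and TMM called 237 and 81 of them. Leaving out a library gave 347 to 560 calls, the most without replicate 1 of NF 4 h (560) and without replicate 2 of NF 4 h (551); without replicate 1 of NF 20 h, 209 of the 239 higher and 51 of the 81 lower genes were still called, and without replicate 2, 232 and 61. The fit with a replicate block gave 2413 calls, 1394 higher and 1019 lower, among them all 320. The numbers share no stated batch; the difference between replicates at 20 h correlated with that at 4 h across genes (r = 0.62, genes not being independent replicates).

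Of 131 called named genes, 102 were called in every alternative that fitted them, 25 lost the call without replicate 1 of NF 20 h and 10 without replicate 2. Of 612 class counts under alternatives, 335 were within 1.5 times the main count. For genes at least 2-fold from the control in both libraries, 864 in all, a 1.5-fold limit gave 1678, a mean of 5 CPM 439, and leaving out a replicate of NF 20 h 1205 to 1537, the most without replicate 1. What replicate 1 of NF 20 h and the control carry of their own could not be separated with 1 control library, and the cause of these shifts was not tested.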
